A study of Homo sapiens with 3 samples.

Results

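The genes described here are 8 members of trophic factor signalling: the ligands BDNF, NTF3 and GDNF, and the receptors NTRK2, NTRK3, NGFR, RET and GFRA1. They were chosen by name, and for each the transcript entry with the highest mean level was kept, giving 8 of 27307 genes. RNA-seq libraries came from 3 replicate teratomas, tumours of mixed differentiated tissue, grown for 3 to 4 weeks from 1000000 H1 human embryonic stem cells put under the skin of immunodeficient SCID-beige mice. H1 is an established cell line, no allele or agent was added, and the 3 libraries, called teratomas 1, 2 and 3, form a single group without controls. Whether each library came from its own tumour or animal is not stated. The libraries differed by more than counting noise, as given under processing. Spread between tumours, within a tumour and from library preparation cannot be told apart.

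Neurotrophins are secreted growth factors on which developing neurons depend for survival and axon growth. BDNF acts through the receptor tyrosine kinase TrkB (gene NTRK2) and NTF3 mainly through TrkC (NTRK3), while NGFR encodes p75, a receptor shared by the whole neurotrophin family and abundant in neural crest derivatives. GDNF binds GFRA1, a receptor anchored in the outer membrane leaflet, and the pair then engages the kinase RET, a route needed for the enteric nervous system and for branching of the kidney's ureteric bud.

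Apart from RET, each receptor had a higher mean level than any of the 3 ligands. Levels are in RPKM, that is reads for each 1000 bases of transcript in 1000000 reads, a scale that corrects for length. By mean ± SD over the libraries (n = 3) the order was NTRK2 (39.6 ± 23.3), NGFR (21.4 ± 11.3), GFRA1 (18.8 ± 1.88), NTRK3 (5.95 ± 2.82), NTF3 (2.78 ± 1.46), RET (2.03 ± 0.359), BDNF (0.828 ± 0.281) and GDNF (0.701 ± 0.389). All 5 receptors and NTF3 reached 1 RPKM in each library, called detected below. That is 6 of 8 genes, beside 52.7% of all genes and 66.5% of genes whose kept entry was protein-coding. NTRK2 lay above 95.3% of all genes by mean level, GFRA1 above 87.7% and GDNF above 39.5%.

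Neighbours in this order could often not be told apart. For the 7 neighbouring pairs, differences within libraries on the log2(RPKM + 1) scale were tested by exact permutation of their signs, two-sided. With 3 libraries the smallest p this allows is 0.25, so no pair could pass 0.05. GFRA1 exceeded NTRK3 in 3 of 3 libraries by 1.58 ± 0.45 (SD, n = 3; exact p = 0.25, Benjamini-Hochberg adjusted p = 0.583). NTRK3 exceeded NTF3 in 3 of 3 by 0.90 ± 1.20 (exact p = 0.25, adjusted 0.583), and RET exceeded BDNF in 3 of 3 by 0.73 ± 0.33 (exact p = 0.25, adjusted 0.583). NTRK2 exceeded NGFR in 2 of 3 libraries (0.80 ± 1.54, exact p = 0.5, adjusted 0.875), and NTF3 exceeded RET in 2 of 3 (0.23 ± 0.67, exact p = 0.75, adjusted 1). NGFR against GFRA1 (0.07 ± 0.72) and BDNF against GDNF (0.12 ± 0.51) differed by less than their spread, each with exact p = 1, adjusted 1. NGFR led in teratoma 1, and NTRK2 led in teratomas 2 and 3.

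**Figure D1:**
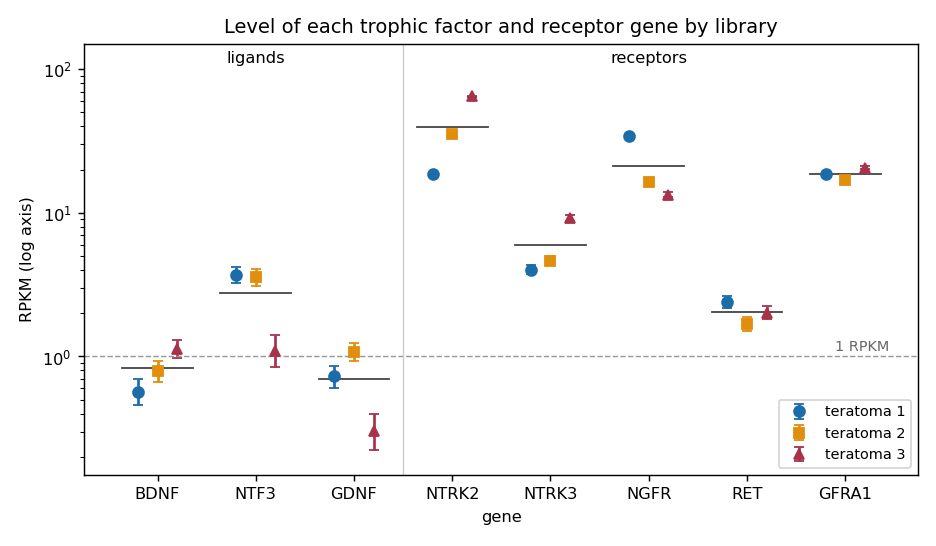
RPKM (log axis) of the 3 ligand and 5 receptor genes in teratomas 1, 2 and 3. Points are libraries, error bars are exact 95% Poisson intervals of the read counts, which cover counting error only, horizontal lines are means and the dashed line marks 1 RPKM; the ligands lie at or below 3.69 RPKM, and NTRK2 spans 18.6 to 64.7.

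Genes whose libraries spanned 1 or more on the log2(RPKM + 1) scale are called varying. NTRK2, NGFR, NTF3 and NTRK3 did so, 4 of 8, beside 12.1% of all genes and 17.6% of detected genes. The count rested on the outer libraries, since it was 1 of 8 without teratoma 1 and 1 of 8 without teratoma 3. The 4 did not share a direction: NTRK2 and NTRK3 were highest in teratoma 3 and lowest in teratoma 1, whereas NGFR and NTF3 were highest in teratoma 1 and lowest in teratoma 3. Of the 8 genes, 3 were highest in teratoma 1, 1 in teratoma 2 and 4 in teratoma 3, beside 39.7%, 19.4% and 40.9% of detected genes. Teratoma 1 was lowest for 3, teratoma 2 for 2 and teratoma 3 for 3, beside 31.3%, 21.7% and 47% of detected genes. Genes both varying and highest in teratoma 1, 2 or 3 made up 6.8%, 3.73% and 7.07% of detected genes, and 2, 0 and 2 of the 8. In bulk tissue, fewer cells of a type and less RNA per cell cannot be told apart.

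**Figure D2:**
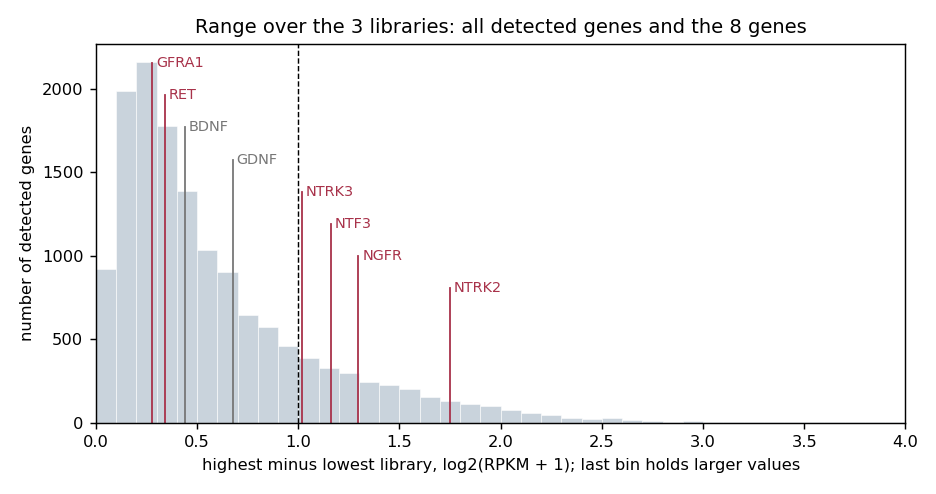
Histogram of the highest minus the lowest library on the log2(RPKM + 1) scale for the 14388 detected genes, with a vertical line for each of the 8 genes (red, detected; grey, not detected) and a dashed line at 1. NTRK2 has the widest range of the 8, at 1.75, and GFRA1 the narrowest, at 0.28.

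Among the ligands, BDNF, the TrkB ligand, stood at 0.569, 0.789 and 1.13 RPKM in teratomas 1, 2 and 3. It rested on 99, 136 and 185 reads, and teratoma 3 alone passed 1 RPKM. The ratio of teratoma 3 to teratoma 1 was 1.98, with an exact 95% counting interval of 1.54 to 2.56. All 17 deposited BDNF entries, which differ mainly in their first exons, carried nearly the same reads, 99 to 110 in teratoma 1 and 185 to 188 in teratoma 3, so these tables do not show which BDNF promoter was used. The antisense gene BDNF-AS stood at 0.982, 0.843 and 1.60 RPKM, above BDNF in each library. No source used here gives the strand setting, so the shared part of BDNF and BDNF-AS cannot be assigned to either gene.

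NTF3, which encodes neurotrophin-3, stood at 3.69, 3.55 and 1.10 RPKM, from 228, 217 and 64 reads. It was the highest of the 3 ligands by mean and in teratomas 1 and 2, while in teratoma 3 BDNF, at 1.13, was as high. Teratomas 1 and 2 were alike and teratoma 3 lay below both, with a ratio of teratoma 1 to teratoma 3 of 3.36 (95% counting interval 2.54 to 4.51). Its other entry gave 3.65, 3.57 and 1.06 RPKM. The entries, for forms of 257 and 270 residues, share most of their reads, so these values do not tell the forms apart. GDNF, the RET and GFRA1 ligand, stood at 0.727, 1.08 and 0.301 RPKM from 128, 188 and 50 reads. Teratoma 2 was highest and teratoma 3 lowest, with a ratio of 3.58 (95% counting interval 2.61 to 4.99). GDNF-AS1, its antisense gene, had 9, 3 and 3 reads.

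NTRK2, encoding TrkB, had the highest mean level of the 8 and the widest range on the log2(RPKM + 1) scale, which shrinks differences of low genes. By the ratio of highest to lowest library GDNF, at 3.58, was above it. It stood at 18.6, 35.5 and 64.7 RPKM in teratomas 1, 2 and 3, from 6131, 11612 and 20158 reads. The 3 libraries did not overlap in their counting intervals, and teratoma 3 exceeded teratoma 1 by 3.49 times (95% counting interval 3.39 to 3.59). The range exceeded that of 95.7% of detected genes.

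These values belong to an entry for T1, a TrkB that ends shortly after the membrane and has no kinase domain. TrkB T1 is known as a form of astrocytes and mature brain that binds BDNF without kinase signalling. Of 6 deposited NTRK2 entries, 2 encode T1 (477 residues), 2 the full-length kinase (838 and 822 residues) and 2 the T-Shc form (553 and 537 residues), which keeps the Shc docking site but lacks the kinase. Residue numbers come from GENCODE release 29, to which 44 of the 46 entries of the 8 genes matched by RefSeq accession. Coding stretches where these forms part are shown here from GENCODE on GRCh38, plus strand. The last 18 shared bases are in lower case and the bases that follow in the named form are in capitals. T1 is joined across a splice junction to its own last coding stretch at chr9:84810542-84810579, which ends in the stop codon. The full-length form of 838 residues continues at chr9:84861040-84861084. T-Shc of 553 residues holds those bases too, while the full-length form of 822 residues lacks them, so they do not mark the kinase. T-Shc leaves the 838-residue form further on, at chr9:84871789-84871817, again up to its stop codon. There the 838-residue form continues at chr9:84934162-84934221, which is not printed.
NTRK2 T1: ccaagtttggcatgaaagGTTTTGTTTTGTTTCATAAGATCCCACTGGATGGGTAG
NTRK2 full-length: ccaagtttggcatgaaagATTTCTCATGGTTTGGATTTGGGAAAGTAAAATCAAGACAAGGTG
NTRK2 T-Shc: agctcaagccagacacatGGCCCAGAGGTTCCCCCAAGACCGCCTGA

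The T1 entry was covered more densely than the full-length one in every library. The full-length entry of 838 residues stood at 6.24, 11.2 and 23.8 RPKM, and the T-Shc entry of 553 residues at 4.67, 8.88 and 16.2. The T1 entry was 2.97, 3.16 and 2.72 times the full-length entry in teratomas 1, 2 and 3 (mean 2.95 ± 0.219, n = 3). The 3 forms share their extracellular exons, and reads there were counted for each, so these ratios are not ratios of molecules. If a count holds all reads on an entry's exons, at least 3481, 6885 and 10639 reads of the T1 entry lay outside the full-length entry, which is 56.8%, 59.3% and 52.8% of its reads. Of the bases particular to the T1 entry, the 38 in capitals are coding and the others untranslated. Conversely the full-length entry held at least 852, 1341 and 3646 reads more than the T-Shc entry, so sequence of the full-length entry that T-Shc lacks was read in each library. Whether these reads lay on the kinase exons or in the untranslated 3′ end cannot be told from totals per entry. All 6 entries were highest in teratoma 3 and lowest in teratoma 1.

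**Figure D3:**
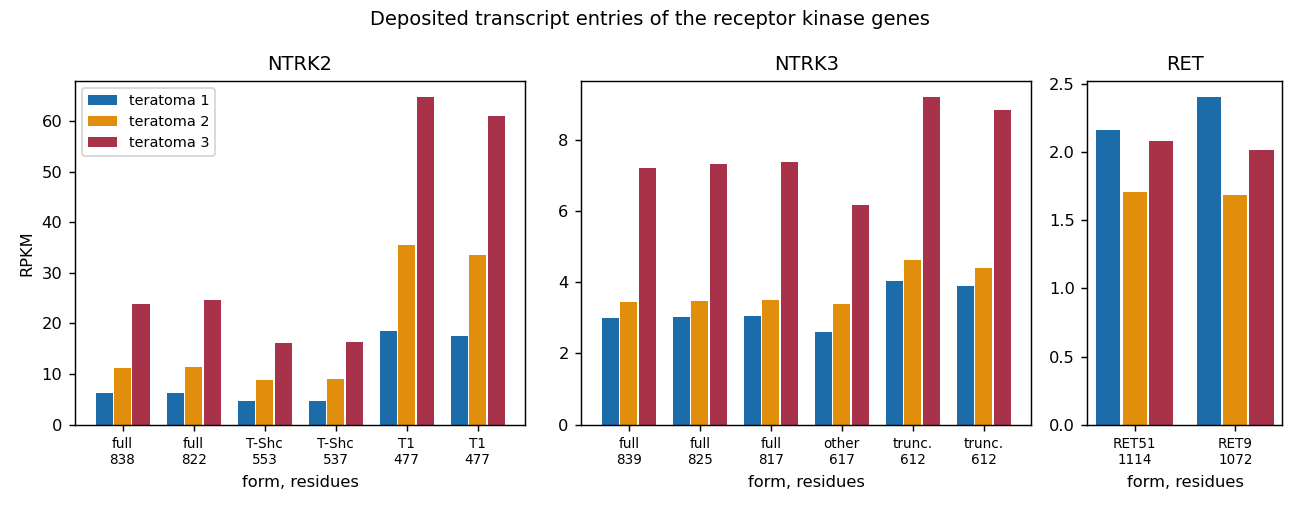
RPKM of each deposited transcript entry of NTRK2, NTRK3 and RET in the 3 libraries, with the protein form and its number of residues under each group of bars; the vertical scales differ between genes. T1 entries of NTRK2 reach 64.7 RPKM in teratoma 3 against 24.6 for the higher full-length entry, while the 2 RET entries stand at nearly the same level. Reads on shared exons are counted for each entry of a gene.

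NTRK3, encoding TrkC, stood at 4.03, 4.64 and 9.19 RPKM from 690, 786 and 1483 reads. Teratomas 1 and 2 were close and teratoma 3 stood apart, 2.28 times teratoma 1 (95% counting interval 2.081 to 2.498). As for NTRK2, the kept entry encodes a truncated receptor, here of 612 residues. The truncated and full-length forms part on the minus strand of chromosome 15, in GRCh38 at chr15:87981301-87981360 for the truncated form and at chr15:87940694-87940753 for the kinase, and the first 60 bases of each are shown in capitals.
NTRK3 truncated: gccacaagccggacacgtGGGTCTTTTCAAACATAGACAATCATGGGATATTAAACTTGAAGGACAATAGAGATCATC
NTRK3 full-length: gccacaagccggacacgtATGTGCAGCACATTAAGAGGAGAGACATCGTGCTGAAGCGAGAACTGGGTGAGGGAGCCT

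The ratio of the truncated to the full-length entry was lower for NTRK3. As for NTRK2, the entries share reads, so it is not a ratio of molecules and does not compare the use of forms between the genes. The full-length entry of 825 residues stood at 3.03, 3.48 and 7.32 RPKM, and the truncated entry was 1.33, 1.33 and 1.26 times as high (mean 1.31 ± 0.0438, n = 3). At least 275, 314 and 538 reads, 39.9%, 39.9% and 36.3% of its total, lay outside the full-length entry. All 6 NTRK3 entries were highest in teratoma 3. NTRK3-AS1, an antisense gene of the locus, had 0, 0 and 1 read.

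NGFR, encoding p75, stood at 34.3, 16.4 and 13.4 RPKM from 5431, 2565 and 1996 reads. Teratoma 1 stood apart and the other libraries were close to each other. Teratoma 1 exceeded teratoma 3 by 2.57 times (95% counting interval 2.44 to 2.70). NGFR has a single deposited entry, so its level does not depend on the choice among entries. The level of NGFR was 1.85, 0.461 and 0.207 times that of the kept NTRK2 entry, for T1, in teratomas 1, 2 and 3. NGFR was thus higher in teratoma 1, and that entry was higher in teratomas 2 and 3. The full-length NTRK2 entry of 838 residues, at 6.24, 11.2 and 23.8 RPKM, was below NGFR in teratomas 1 and 2. It was above NGFR in teratoma 3, so the order in teratoma 2 depends on the NTRK2 entry.

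RET and GFRA1 varied least of the 8. RET, the signalling kinase of the GDNF family, stood at 2.40, 1.68 and 2.01 RPKM from 462, 321 and 365 reads, and the highest library exceeded the lowest by 1.43 times (95% counting interval 1.23 to 1.65). GFRA1, the GDNF-binding coreceptor, stood at 18.7, 16.9 and 20.7 RPKM from 7909, 7064 and 8223 reads, with a ratio of 1.22 (95% counting interval 1.18 to 1.26). GFRA1 was 7.80, 10.03 and 10.3 times as high as RET, and 25.8, 15.7 and 68.6 times as high as GDNF. Its 7 entries agreed closely, from 18.1 to 18.8 RPKM by mean.

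RET ends in either of 2 tails, known as RET9 and RET51, which differ in docking sites. They part near the last shared coding exon on the plus strand of chromosome 10, in GRCh38 at chr10:43126724-43126754 for RET9, printed up to its stop codon, and at chr10:43128113-43128172 for RET51, of which the first 60 bases are in capitals.
RET9: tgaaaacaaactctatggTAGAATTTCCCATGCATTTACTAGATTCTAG
RET51: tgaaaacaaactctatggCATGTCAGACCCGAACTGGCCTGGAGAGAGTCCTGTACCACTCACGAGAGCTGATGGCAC

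The RET9 entry, the one kept, was 1.11, 0.987 and 0.966 times the RET51 entry in teratomas 1, 2 and 3 (mean 1.02 ± 0.0776, n = 3). These entries could thus not be ordered. They share 3188 coding bases, and reads there were counted for both. The ratio is therefore not one of molecules and does not show how much each tail was used. RET51 stood at 2.16, 1.71 and 2.08 RPKM and, like RET9, was lowest in teratoma 2.

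Across the libraries the ligand followed its receptor's order for BDNF and not for NTF3 or GDNF. NTRK3, by its kept truncated entry, was 1.09, 1.31 and 8.36 times as high as its ligand gene NTF3. This receptor was highest and the ligand lowest in teratoma 3. NTRK2, by its kept T1 entry, was 32.6, 44.99 and 57.4 times as high as BDNF, and both genes had the order of teratoma 3 over 2 over 1. The full-length NTRK2 entry, at 6.24, 11.2 and 23.8 RPKM, had that order too, at a lower ratio to BDNF. GDNF was highest in teratoma 2, whereas RET was highest in teratoma 1 and GFRA1 in teratoma 3.

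Levels of cell type markers also differed between the libraries. All 11 pan-neuronal markers, led by TUBB3 and STMN2, were detected and were highest in teratoma 3, with summed levels of 854, 1082 and 2877 RPKM in teratomas 1, 2 and 3, the order seen for NTRK2, NTRK3 and BDNF. Of 6 astroglia markers, led by GJA1 and SLC1A3, 3 were detected, with sums of 64.1, 109.8 and 78.2, of which GJA1 gave 47.7, 75.1 and 26.1. GFAP, the astrocyte filament, stood at 0.392, 2.53 and 4.09 RPKM. The list was split: of the 6, 3 were highest in teratoma 3, GFAP among them, 2 in teratoma 2 and 1 in teratoma 1. The 8 neural crest and Schwann cell markers, led by ERBB3 and EDNRB, were all detected, with sums of 125, 98.4 and 75.1, and SOX10, their defining factor, stood at 21.6, 11.3 and 3.99 RPKM, highest where NGFR was highest. The 10 mesenchyme and perivascular markers, led by COL1A1 and COL3A1, were all detected, with sums of 1308, 1063 and 320.1, and the gut mesenchyme and muscle list, led by FOXF2 and FOXF1, had 5 of 6 detected, with sums of 64.1, 45.8 and 18.8. Both were lowest in teratoma 3, as were NTF3, GDNF and NGFR. The part of cell makeup in the differences of the 8 genes was not tested.

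Lists for cells that use RET or its partners gave no common order. Sympathetic and enteric neuron markers, led by CHGA and PRPH, were detected in 6 of 9 cases, with sums of 317, 139 and 143, of which CHGA alone gave 204, 64.7 and 38.6, and 5 of the 9 were highest in teratoma 3. Nephric duct and kidney markers, led by LHX1 and PAX2, were detected in 7 of 9 cases, with sums of 67.8, 91.1 and 82.3. Sensory neuron markers, led by NEUROG2 and ISL1, were detected in 7 of 8 cases (37.1, 33.8 and 37.7). Motor neuron markers, led by MNX1 and OLIG2, were detected in 2 of 6 (21.5, 17.3 and 11.9). MNX1 carried the order of that sum, at 17.0, 13.3 and 3.45 RPKM, whereas the other 5 were highest in teratoma 3. CHAT, the enzyme that makes the motor neuron transmitter, was listed at 0 in teratoma 1 and under 1 RPKM in all 3. Midbrain dopamine neuron markers, led by FOXA2, which endoderm shares, and LMX1B, were detected in 4 of 7 (57.4, 50.7 and 38.3), of which FOXA2 gave 36.4, 30.2 and 10.1, and 4 of the 7 were highest in teratoma 3. Neural progenitor markers, led by VIM and SOX2, were detected in 8 of 8 cases (1414, 1305 and 1256). VIM carried the order of that sum, at 1098, 981 and 787 RPKM, whereas the other 7 were highest in teratoma 3, and the mean deviation of the list was -0.22, -0.09 and 0.31 on the log2(RPKM + 1) scale. Of the other lists, basal epithelium markers, led by KRT5 and KRT15, in 3 of 5 (13.9, 89.9 and 17.2), and endothelium markers, led by CLDN5 and CDH5, in 1 of 5 (20.1, 20.5 and 4.63).

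**Figure D4:**
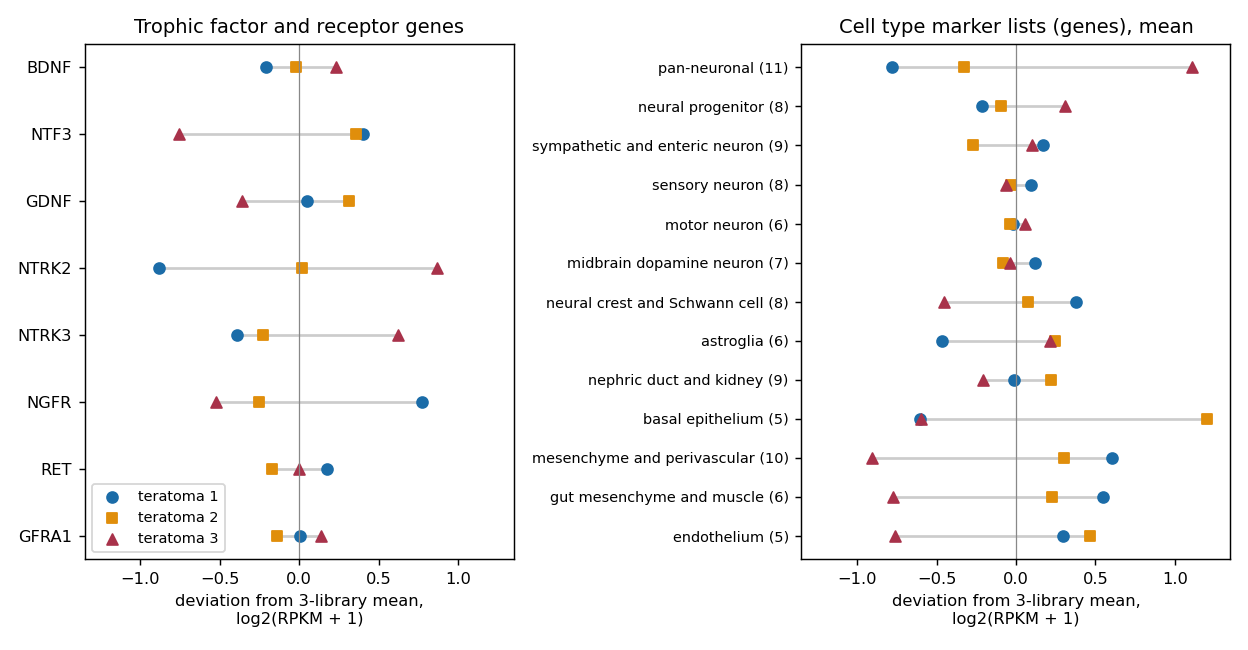
Deviation of each library from the mean of the 3 on the log2(RPKM + 1) scale, for the 8 genes (left) and as the mean over each cell type marker list (right, number of genes in brackets). Teratoma 3 lies highest for BDNF, NTRK2, NTRK3 and the pan-neuronal list and lowest for NTF3, GDNF, NGFR and the mesenchyme lists.

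Other genes of the same signalling routes were mostly present. Of 62 further pathway genes, 54 (87.1%) were detected, with a median of 9.20 RPKM against 2.05 over all genes, and 22 (35.5%) varied, against the 12.1% of all genes given above. Of the 54 detected, 19 varied, beside 17.6% of detected genes. The lists hold well-known, mostly broadly expressed genes, so these shares describe the lists only. Of the 6 other ligands 2 were detected. NRTN, neurturin, the ligand of GFRA2, stood at 12.6, 8.60 and 2.65 RPKM, above each of the 3 ligands described here by mean level. GDF15, a stress-induced factor that signals through GFRAL and RET, stood at 8.24, 8.22 and 2.13 RPKM. NTF4 (1.82, 2.03 and 0.253) was lowest in teratoma 3, as NTF3 was, while PSPN (0.980, 1.02 and 1.64) was highest there and ARTN (0.831, 0.547 and 0.575) stayed under 1 RPKM.

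Of 15 other receptors and coreceptors 13 were detected, beside 52.7% of all genes. In teratoma 3, 10 of the 15 were highest, GFRA4 with a single read among them, beside 40.9% of detected genes. NCAM1, an adhesion molecule that can bind GDNF, stood at 41.6, 67.4 and 160.4 RPKM, and the proteoglycan SDC3 at 65.6, 72.2 and 123.5. These were the highest by mean, SDC3 above NCAM1 in teratomas 1 and 2 and below it in teratoma 3. LINGO1 (30.04, 33.0 and 69.5) and RTN4R (22.3, 19.3 and 22.8) form a receptor complex with p75, and TNFRSF19 (19.0, 16.8 and 8.17) can stand in for p75 there. The proneurotrophin receptors of the sortilin family were all detected: SORT1 at 16.4 ± 1.95, SORCS2 at 16.0 ± 5.93, SORCS1 at 2.88 ± 1.23, SORL1 at 2.79 ± 0.665 and SORCS3 at 2.46 ± 1.61 (n = 3).

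The coreceptors of RET differed from each other in direction. GFRA3, the artemin receptor of sensory and sympathetic neurons, stood at 35.5, 8.83 and 3.79 RPKM, highest in teratoma 1 as NGFR was. GFRA2, the neurturin receptor, stood at 6.50, 6.66 and 16.5, highest in teratoma 3. GFRA4, the persephin receptor, had reads in teratoma 3 alone, at 0.016 RPKM, and GFRAL, the GDF15 receptor, was listed at 0 in all 3 libraries. At 2500 bases, the 3 reads that a count of 0 allows would correspond to 0.026, 0.026 and 0.028 RPKM in teratomas 1, 2 and 3.

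**Figure D5:**
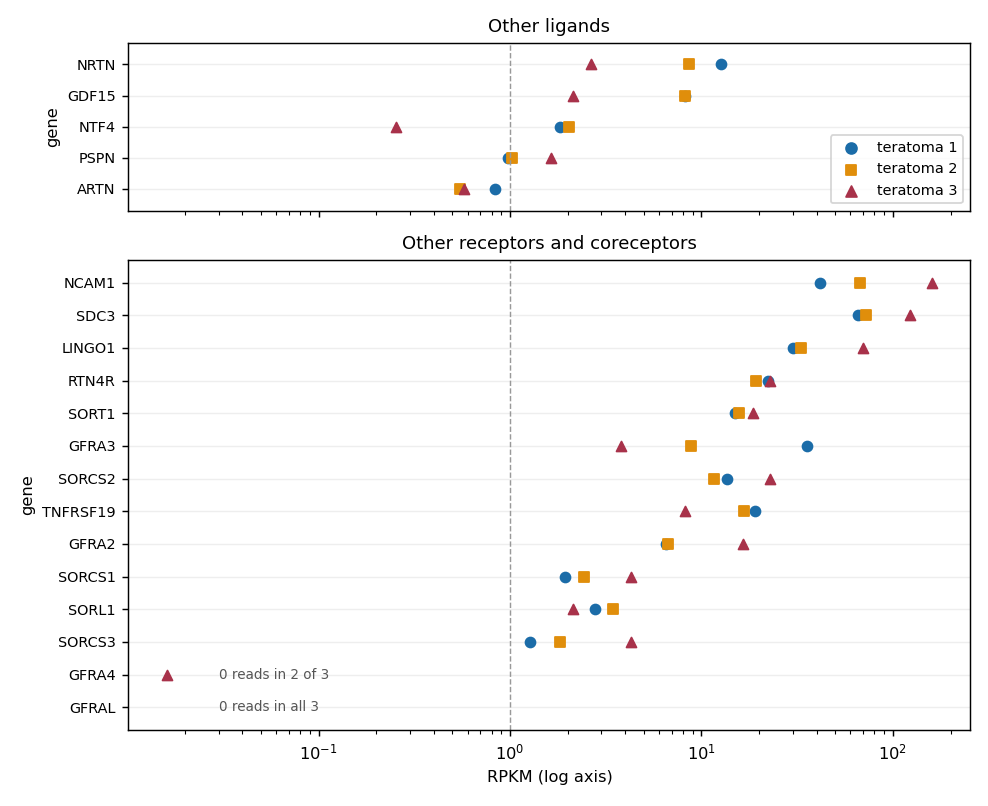
RPKM (log axis) of other ligands, receptors and coreceptors of the neurotrophin and GDNF families named in the text, in the 3 libraries; the dashed line marks 1 RPKM and libraries without reads are named in the plot. NRTN and GDF15 are the ligands past the line in all 3 libraries, and GFRA3 spans 3.79 to 35.5 RPKM with teratoma 1 highest.

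Inside the cell, all 21 measured adaptors and signal transducers were detected and 2 varied, beside 17.6% of detected genes. They were led by MAGED1 (218 ± 31.5 RPKM), which binds p75, ARHGDIA (127 ± 22.4), a GTPase regulator that can bind p75, and KIDINS220 (47.3 ± 26.9), a scaffold and substrate of Trk receptors that stood at 27.2, 36.8 and 77.8. Precursor processing genes were detected in 6 of 7 cases, and 5 varied, beside 12.1% of all genes and 17.6% of detected genes. CPE, a sorting receptor and carboxypeptidase of secretory granules, stood at 66.7, 52.0 and 107.4, FURIN, which cleaves proneurotrophins, at 34.3, 34.3 and 11.3, and PLAT, which activates plasmin, at 10.4, 12.1 and 3.43. Of 13 activity and response genes 12 were detected and 5 varied, beside the same shares. SPRY2, a feedback inhibitor of receptor kinases, stood at 28.5, 21.6 and 18.4, and VGF, a neurotrophin-inducible peptide precursor, at 15.8, 14.6 and 35.6.

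For the 4 varying genes, the genes most like each in pattern were sought among those with 0.5 to 2 times its mean level, by the Euclidean distance between deviations of log2(RPKM + 1) of each library from the gene's own mean. NTRK2 was nearest to SPOCK2 (distance 0.085), ALDOC (0.13) and LHX1 (0.14), and 4 of 2676 candidates lay within 0.2. SPOCK2 stood at 11.8, 20.9 and 40.6 RPKM. NGFR was nearest to TRIL (0.12; 42.0, 19.2 and 14.5 RPKM), LRRC17 (0.14) and NKD2 (0.15), with 5 of 4856 candidates within 0.2. NTRK3 was nearest to STAU2 (0.0062), MPPE1 (0.0099) and SPRED3 (0.015), and NTF3 to EGFLAM (0.0071), LOC101929613 (0.020) and LXN (0.029). For these, 308 of 6875 and 224 of 5416 candidates lay within 0.2, so with 3 libraries their patterns were common ones.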

How the data were processed

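A NEBNext Ultra II kit was used on polyadenylated RNA, per the labels' protocols. The submitters' processing notes name Bowtie2 and hg19. The sources used here give no version, counting rule, strand setting or removal of host mouse reads, so mouse reads may be part of the values. The deposited tables list 59443 RefSeq entries with the authors' RPKM, raw read counts, and the other columns, length and placement number, per the file layout. Library totals were 43605458 to 46243199 reads, from the ratio of deposited counts to deposited RPKM. For each symbol the entry with the highest mean RPKM was kept (27307 genes). Reads on shared exons were counted for several entries. No 2 libraries were copies: the chi-square per gene was 57.7 to 313, where sampling noise gives about 1.

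Detection was 1 RPKM in all 3 libraries, and the pseudocount was 1. Intervals are exact 95% Poisson or binomial and cover counting error only. With 1 group, no model between groups was fitted. The p-values only set a within-library difference between neighbouring genes against its spread over these libraries. Sequences and residue numbers were read by transcript from GENCODE 29 (GRCh38), another build than that of the tables. The genes, lists and tests were chosen with earlier results of these data known. Named were the 8 genes, detected or leading ligands and receptors, the 3 highest of each other pathway list, the 2 highest of each marker list and the 3 genes nearest to each varying gene. NTF4, PSPN, ARTN, GFRA4, GFRAL, SOX10, GFAP, CHAT and antisense genes were added after their values were seen. NGFRAP1 was not analysed here, and some genes of these lists enter the counts but are not reported by name. Alternatives covered detection level, pseudocount, size of difference, a filter on low values, entries per gene, scaling and each library left out; leaving libraries out of the entry ratios was added after the data were seen. The range statistic was tested on simulated counts. Python 3.11.15 with numpy 2.4.6, pandas 2.3.3, scipy 1.17.1 and matplotlib 3.10.9 was used.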

Additional observations from a re-analysis of the deposited data

How the results depend on the processing

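No comparison between groups, paired or not, was possible because the libraries form 1 group. The only pairing was of neighbouring genes within a library, in the test of their order. With detection at 5 RPKM, 3 of the 8 genes were detected; in the other alternatives the count was 6 to 8. With each library left out, 6 were detected. The count of varying genes was 0 at a difference of 2, from 1 to 4 with a library left out, and 4 or 5 otherwise. Pathway genes detected came to 36 at 5 RPKM and 54 to 56 with a library left out. Orders that turned were NTRK2 minus NGFR with entries averaged (-0.093), NGFR minus GFRA1 (-2.65) and RET minus BDNF (-1.46) with entries summed, where genes with many overlapping entries gain by construction. With a library left out, NGFR minus GFRA1 ran from -0.32 (without teratoma 1) to 0.40, NTF3 minus RET from -0.028 (without teratoma 2) to 0.61, and BDNF minus GDNF from -0.18 (without teratoma 3) to 0.29; the smallest exact p with 2 libraries is 0.5. The ratio of T1 to full-length NTRK2 stayed between 2.85 and 3.07 with a library left out. Median-of-ratios scaling shifted libraries by -0.05 to 0.06 (log2), and each of the 8 genes kept its highest and lowest library under every scaling and entry choice tried. The ligand genes rest on 50 to 228 reads in each library, fewer than any receptor gene, and their ratios between libraries have the widest counting intervals.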
